A study of Mus musculus with 25 samples.

Results

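The SOX transcription factors of sorted mouse cortical neurons are described here, gene by gene, in every library of the series. The members were chosen by symbol from a list of 10 genes, *Sox2*, *Sox4*, *Sox5*, *Sox6*, *Sox8*, *Sox9*, *Sox10*, *Sox11*, *Sox12* and *Sox17*, and 7 of the 10 have a row among the 9931 genes with a symbol. *Sox6*, *Sox10* and *Sox12* have no row in the table used here and are not analysed. The other Sox symbols in the table are *Sox7* and the long noncoding RNA *Sox2ot*.

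Neurons of the sensorimotor cortex, the source of corticospinal axons, were profiled with or without the repressor REST after spinal cord injury. All mice were young adults of either sex, labelled C57BL/6, and carried REST flx/flx alleles with the STOP flx/flx TdTomato reporter, so floxed *Rest* and the reporter are common to all groups. Mice given AAV-Syn-GFP are the WT groups, and mice given AAV-Syn-Cre are the REST cKO groups. The synapsin promoter limits virus expression largely to neurons, and the sorted fluorescent protein differed with the virus. SCI was a complete crush of the thoracic cord, and sham mice had surgery without it. WT mice gave 4 sham libraries and 3 from each of days 1, 3 and 7 of recovery from SCI. REST cKO mice gave 3 sham libraries, then 2 from day 1, 4 from day 3 and 3 from day 7. Each of the 25 libraries came from a small pool of sorted cells and was read from the 3′ ends of transcripts. The study counts its replicates as mice. The labels give no animal for each library, so the p-values here measure the spread between libraries. The libraries are named by the number in their label.

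SOX proteins bind DNA through a shared HMG box and are grouped by sequence. SoxC factors such as Sox4 and Sox11 act in newborn neurons and in axon growth, and the SoxD factor Sox5 shapes deep-layer projection neurons, which include corticospinal neurons. Sox2, Sox8 and Sox9 are typical of neural progenitors, oligodendrocyte lineage cells and astrocytes, and Sox17 is typical of vascular endothelium.

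Values are log2 normalized counts, with the log base taken from the study rather than from the table. The study gives only an average read depth, and the read total of each library is not in the files used here, so no counting error is given. In a library, 2.77% (REST cKO day 7, library 26) to 29.5% (WT day 3, library 5) of all values lay under −2. A limma model gave fold changes (log2 differences), standard errors (SE) and p-values adjusted over 9931 genes, with a threshold of 0.1.

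*Rest*, the deleted gene, had values of −0.55, −0.26, −0.39 and −1.55 in WT sham (libraries 3, 10, 14 and 17) and −2.65, −0.79 and −0.52 in REST cKO sham (libraries 6, 18 and 23). At day 1 the values were −1.35, 0.71 and 0.27 in WT and −0.43 and −0.40 in REST cKO. At day 3 they were 1.64, 2.88 and 0.56 in WT and −0.04, −0.31, −0.24 and −1.61 in REST cKO. At day 7 they were 0.26, 2.30 and 2.74 in WT and −1.21, −0.33 and −0.97 in REST cKO. The genotypes did not overlap at days 3 and 7 (nor did they for 7.59% and 12.4% of all genes) and overlapped in sham and at day 1. The day 7 difference was −2.28 (SE 0.92, limma adjusted p = 0.401). Whether the 3′ reads of *Rest* fall inside the deleted part is not given in the sources used here, so these values are a limited check of the labels. The *Rest* values also correlate with a sequencing component that had been regressed out (Pearson r = 0.326 over 25 libraries).

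Of the 7 SOX genes, 0 passed the adjusted threshold in limma in any of the 12 comparisons. The counts below use an unadjusted p under 0.05 and groups without overlap, each beside the share of all 9931 genes called in the same way. Among the 7 genes, *Sox5* and *Sox11* are the only ones with an unadjusted p under 0.05 in any comparison.

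*Sox11* is a SoxC gene of immature and growing neurons. Its values were −0.78, −0.47, −1.11 and −0.60 in WT sham (libraries 3, 10, 14 and 17), −1.67, −1.61 and −0.12 in WT day 1 (1, 8 and 11), 0.42, −0.67 and 0.38 in WT day 3 (5, 16 and 22), and −0.91, −1.16 and −3.98 in WT day 7 (4, 7 and 12). In REST cKO they were −3.57, −0.49 and −2.29 in sham (6, 18 and 23), 0.33 and 1.67 at day 1 (19 and 25), 1.12, 0.75, 0.51 and 0.88 at day 3 (9, 15, 20 and 27), and 2.55, 0.18 and 0.51 at day 7 (2, 13 and 26). All 9 injured REST cKO libraries were above 0 and all 3 REST cKO sham libraries below it. The injured REST cKO groups overlapped neither their own sham nor WT at the same day. Against sham, 20.4%, 6.69% and 10.7% of all genes were free of overlap at days 1, 3 and 7. Between genotypes the shares were 18.6%, 7.59% and 12.4%.

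The *Sox11* group means ranked REST cKO day 7 (1.08 ± 1.28, SD), REST cKO day 1 (1.00 ± 0.95), REST cKO day 3 (0.82 ± 0.26), WT day 3 (0.05 ± 0.62), WT sham (−0.74 ± 0.28), WT day 1 (−1.14 ± 0.88), WT day 7 (−2.02 ± 1.70) and REST cKO sham (−2.12 ± 1.55). The first 3 lay within 1 SD of each other. The steps from REST cKO day 3 to WT day 3 (0.77) and from WT day 3 to WT sham (0.79) exceeded the larger SD of the pair, and the other steps did not.

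Against REST cKO sham, *Sox11* differed by 3.03 (SE 1.14, adjusted p = 0.886) at day 1, 2.89 (SE 1.07, adjusted p = 0.947) at day 3 and 3.01 (SE 1.11, adjusted p = 0.840) at day 7. The 3 differences share the sham libraries, of which library 6 lies lowest, and without it they were 1.97, 1.38 and 1.66. In WT the differences from sham were −0.72 (SE 1.01), 0.83 (SE 1.08) and −1.22 (SE 0.98). With 1 library left out these ran from −1.07 to −0.36, 0.68 to 1.27 and −1.96 to −0.25. REST cKO against WT gave −1.34 (SE 1.12) in sham, 2.41 (SE 1.30) at day 1, 0.72 (SE 1.04) at day 3 and 2.89 (SE 1.04, adjusted p = 0.332) at day 7. The only batch with both genotypes at day 1, batch 2 with 1 library of each, gave 0.45. Within batches 1 and 2 the sham difference was −2.95 and 0.36, and within batches 1, 2 and 3 the day 3 difference was 0.70, 1.30 and 0.50. The sham difference became 0.28 without library 6, and the day 7 difference became 1.69 without WT library 12. The interaction of genotype and injury was 2.06 (SE 1.69) at day 3, or −0.00731 without library 6, and 4.23 (SE 1.56, adjusted p = 0.651) at day 7, or 2.61 without it.

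*Sox11* is also the only one of the 7 genes whose values correlate with the authors' sequencing components, with Pearson r = −0.0947 and 0.169 over 25 libraries. The other 6 SOX genes have r of at most 4.04e-11 in size. In the whole table, 140 genes exceed 1e-05. The study regressed sequencing covariates out of its normalized data for the co-expression analysis. The cause of the departure of *Sox11* was not tested.

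*Sox4*, the other SoxC gene found, is also expressed outside neurons. Its values were −0.48, 1.13, 0.56 and 1.26 in WT sham, −0.15, 0.76 and 0.05 at day 1, 2.62, 0.73 and −0.60 at day 3, and 0.82, −0.33 and −0.55 at day 7. In REST cKO they were −0.88, −0.29 and −0.48 in sham, 0.72 and 1.57 at day 1, −0.48, 0.58, 0.54 and 0.51 at day 3, and −0.22, −0.69 and 0.61 at day 7. Only REST cKO day 1 and sham were free of overlap (20.4% of all genes), with a difference of 1.70 (SE 0.96, adjusted p = 0.924). The genotype difference was −1.22 (SE 0.94) in sham, with −1.21 and −1.20 within batches 1 and 2, and −0.09 (SE 0.88) at day 7, with −0.46 and −0.15. The day 7 value ran from −0.44 to 0.36 with 1 library left out and was 0.42 with a sex term. No neighbouring *Sox4* group means differed by more than their larger SD. Both SoxC genes had r = 0.34 with each other over 25 libraries that share groups and batches.

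*Sox5*, the SoxD gene, had values of −3.23, −3.17, −0.38 and −0.01 in WT sham (libraries 3, 10, 14 and 17), 0.22, −0.64 and −2.33 in WT day 1, 0.65, 0.26 and 1.28 in WT day 3, and −3.52, −3.13 and −2.40 in WT day 7. In REST cKO they were −0.11, −2.07 and −1.68 in sham, −2.95 and −1.38 at day 1, 1.59, −0.50, 0.82 and −1.38 at day 3, and 2.02, 0.75 and 0.61 at day 7. All 3 WT libraries at day 7 were under −2 and all 3 REST cKO libraries were above 0. In WT sham, both libraries of batch 1 were under −3 and both of batch 2 were near 0. In all, 8 of 25 *Sox5* values were under −2, and the reads behind them are unknown.

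The *Sox5* means ranked REST cKO day 7 (1.13 ± 0.78, SD), WT day 3 (0.73 ± 0.52), REST cKO day 3 (0.13 ± 1.33), WT day 1 (−0.92 ± 1.30), REST cKO sham (−1.29 ± 1.04), WT sham (−1.70 ± 1.74), REST cKO day 1 (−2.17 ± 1.11) and WT day 7 (−3.02 ± 0.57). No neighbours in this order differed by more than the larger SD, and every pair of neighbours overlapped.

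At day 7, *Sox5* was 4.29 higher in REST cKO than in WT (SE 1.13, 95% interval 1.97 to 6.62, unadjusted p = 0.000815, adjusted p = 0.183). It was higher in 3 of 3 REST cKO libraries than in any WT library, where 12.4% of all genes were free of overlap in either direction. The difference was 0.42 (SE 1.22) in sham, −1.41 (SE 1.42) at day 1 and −0.59 (SE 1.13) at day 3. Within batches 1 and 2 the sham difference was 3.09 and −1.88, and within batches 1, 2 and 3 the day 3 difference was 0.94, −0.09 and −2.67. The sham difference changed sign without library 3 (−0.0123), 6 (−0.86) or 10 (−0.31). The interaction at day 7 was 3.87 (SE 1.70, adjusted p = 0.757). Within WT, *Sox5* differed from sham by 1.01 (SE 1.10), 2.43 (SE 1.18, adjusted p = 0.713) and −1.35 (SE 1.07) at days 1, 3 and 7, and within REST cKO by −0.83 (SE 1.24), 1.42 (SE 1.17) and 2.52 (SE 1.21, adjusted p = 0.874).

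Sex and genotype cannot be told apart at day 7, where all WT libraries are female and all REST cKO libraries male. The REST cKO sham libraries are male as well. With sex as a term informed by the other groups, the day 7 difference was 3.44 for *Sox5* (adjusted p = 0.405) and 3.13 for *Sox11* (adjusted p = 0.425). Within batch 1 the day 7 difference was 5.35 for *Sox5* and 3.59 for *Sox11* (WT libraries 4 and 7, REST cKO library 2). Within batch 2, with 1 library of each genotype, it was 3.15 and 4.16. Batch 3 has no WT library at day 7. The share of values under −2 was 13.4% ± 3.13 (SD, n = 3) in WT day 7 and 7.43% ± 4.15 (SD, n = 3) in REST cKO day 7. Over 25 libraries, *Sox5* had r = −0.0067 and *Sox11* r = −0.11 with this share. The part of the share in these differences was not tested.

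**Figure D1:**
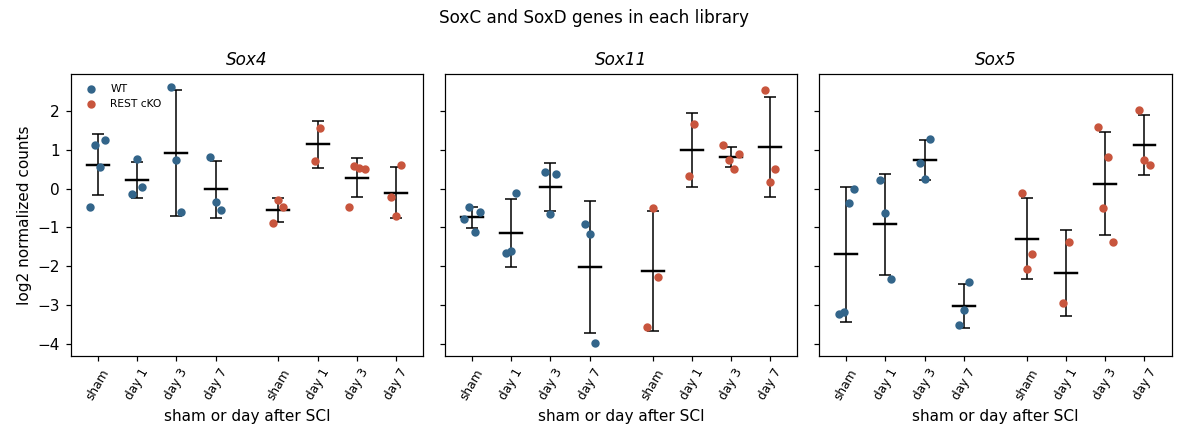
Log2 normalized counts of *Sox4*, *Sox11* and *Sox5* (y axis) in each library by genotype and by sham or day after SCI (x axis), with points for libraries, black lines for means and bars for SD. At day 7 the 3 REST cKO libraries lie above the 3 WT libraries for *Sox11* and *Sox5*, and the genotypes overlap for *Sox4*.

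*Sox9*, an astrocyte factor, had values of 0.42, 0.36, 0.93 and 0.43 in WT sham, 2.14, 0.75 and 0.35 at day 1, 1.08, 1.43 and 1.26 at day 3, and 0.68, 2.46 and 1.27 at day 7. In REST cKO they were 1.62, 1.67 and 0.56 in sham, 1.89 and 1.23 at day 1, 0.36, 2.38, 1.46 and 0.53 at day 3, and 2.77, 0.83 and 2.38 at day 7. WT sham had the lowest mean (0.53 ± 0.26, SD) and did not overlap WT day 3 (1.26 ± 0.17), as for 6.54% of all genes. The fitted difference was 1.06 (SE 0.69, adjusted p = 0.816). In that comparison 8 of 11 astrocyte markers were positive (50.7% of all genes), with a median of 0.60 against 0.01 over all genes, and 5 had an unadjusted p under 0.05 (4 higher and 1 lower, 6.90% of all genes). Endothelial markers had 14 of 17 positive (median 0.81), neuron markers 9 of 10 (median 0.72) and excitatory markers 5 of 6 (median 0.93). Microglial markers had 7 of 12 positive (median 0.02) and inhibitory markers 2 of 4 (median −0.39). REST cKO against WT gave 1.13 (SE 0.71) in sham, with 1.23 and 0.99 within batches 1 and 2, and 0.50 (SE 0.66) at day 7, with 1.19 and −0.44. No neighbouring *Sox9* group means differed by more than the larger SD.

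Markers of astrocytes were followed beside *Sox9*. Of 15 astrocyte markers 11 are in the table, and *Gfap*, *Aqp4*, *Aldh1l1* and *Acsbg1* have no row. Their log2 summed level ran from 4.55 to 6.41 over the libraries, with means of 4.94 ± 0.27 (SD) in WT sham and 5.80 ± 0.16 in REST cKO sham. *Sox9* had r = 0.57 with this sum over 25 libraries. In the sham comparison of genotypes, 11 of 11 astrocyte markers had a positive difference (51.8% of all genes), with a median of 0.92 against 0.04 over all genes. Of the 11, 6 had an unadjusted p under 0.05 (6.91% of all genes) and 0 passed the threshold. In the same comparison 10 of 10 neuron markers were positive (median 1.21, 5 with an unadjusted p under 0.05) and 0 of 12 microglial markers (median −0.38, 5 with an unadjusted p under 0.05). The part of astrocyte RNA in the *Sox9* values was not tested, and fewer cells of a type and less RNA per cell cannot be told apart in bulk libraries.

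*Sox2*, the SoxB1 gene of neural progenitors and astrocytes, overlaps the longer *Sox2ot* on the same strand, so its reads are uncertain. It ranged from −2.94 (REST cKO day 3, library 9) to 2.47 (REST cKO day 3, library 20), with an SD of 2.22 within that group. Group means ran from −1.07 ± 1.62 (SD) in WT day 3 to 1.17 ± 1.10 in REST cKO day 1. The groups overlapped in all 10 pairwise comparisons, and the day 7 genotype difference was −0.32 (SE 1.24), with −0.61 and −0.44 within batches 1 and 2 and a range of −1.01 to 0.66 with 1 library left out. Over all alternative fits its lowest value was −1.85. *Sox2* had r = 0.57 with *Sox9* and 0.59 with *Sox17* over 25 libraries.

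*Sox8*, a SoxE gene of the oligodendrocyte lineage, ranged from −3.79 (REST cKO sham, library 6) to 1.70 (WT day 1, library 8), and 7 of 25 values were under −2. Its highest mean was in WT day 1 (0.61 ± 1.26, SD) and its lowest in REST cKO day 7 (−1.98 ± 1.51). WT day 1 differed from WT sham by 2.08 (SE 1.23, adjusted p = 0.861), and the day 7 genotype difference was −0.57 (SE 1.26), with −2.44 and −0.32 within batches 1 and 2 and a range of −1.48 to 0.10 with 1 library left out. No pair of compared groups was free of overlap. Oligodendrocyte markers (14 of 15 in the table, *Mbp* the most abundant, *Opalin* without a row) had a log2 sum of 3.94 to 6.44 in WT day 1 and 3.67 to 4.44 in WT sham, which overlap. All 14 were positive in that comparison (55.9% of all genes), with a median of 2.05 against 0.12 over all genes, 4 had an unadjusted p under 0.05 (6.43% of all genes) and 0 passed the threshold. Beside them, 11 of 11 astrocyte markers (median 1.03) and 0 of 12 microglial markers (median −0.31) were positive. The r of *Sox8* with this sum was 0.26, and its part in the *Sox8* values was not tested.

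*Sox17*, an endothelial SoxF gene, had values of −0.54, −0.36 and −1.26 in WT day 7 and 0.35, 1.87 and 0.75 in REST cKO day 7. These were without overlap, as were 12.4% of all genes. The fitted difference was 1.84 (SE 1.03, adjusted p = 0.577), with 0.80 and 3.14 within batches 1 and 2, against −0.57 (SE 1.11) in sham and 0.50 (SE 1.03) at day 3. Over all alternative fits the day 7 difference ran from 0.89 to 2.11. Within batches 1, 2 and 3 the day 3 difference was 1.94, 0.72 and −1.99. With 1 library left out, the sham difference reached 0.10 and the day 3 difference −0.47, so neither kept its sign. At day 1 the values were 0.31, −0.28 and −0.11 in WT and 0.41 and 1.86 in REST cKO, again without overlap (18.6% of all genes). The difference was 0.90 (SE 1.30) and ran from 0.11 to 1.92 with 1 library left out. Over all libraries *Sox17* ran from −2.36 (WT day 3, library 5) to 1.87 (REST cKO day 7, library 13), and no neighbouring group means differed by more than the larger SD. Endothelial markers (17 of 18 in the table, *Flt1* the most abundant, *Sox18* without a row) had log2 sums from 5.35 to 6.77, with 5.96 ± 0.11 (SD) in WT day 7 and 6.06 ± 0.27 in REST cKO day 7. *Sox17* had r = 0.09 with that sum. *Sox17* had r = −0.43 with the share of values under −2, which was 13.4% in WT day 7 and 7.43% in REST cKO day 7. The part of either in the *Sox17* values was not tested.

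*Sox7*, a SoxF gene outside the 10 and itself an endothelial marker here, differed between genotypes by 0.22 (SE 0.99) in sham, 1.59 (SE 1.16) on day 1, 3.10 (SE 0.92, unadjusted p = 0.00253, adjusted p = 0.650) on day 3 and 2.10 (SE 0.92, adjusted p = 0.444) on day 7. Over the endothelial list the medians were 0.55, 0.34, −0.31 and −0.03.

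**Figure D2:**
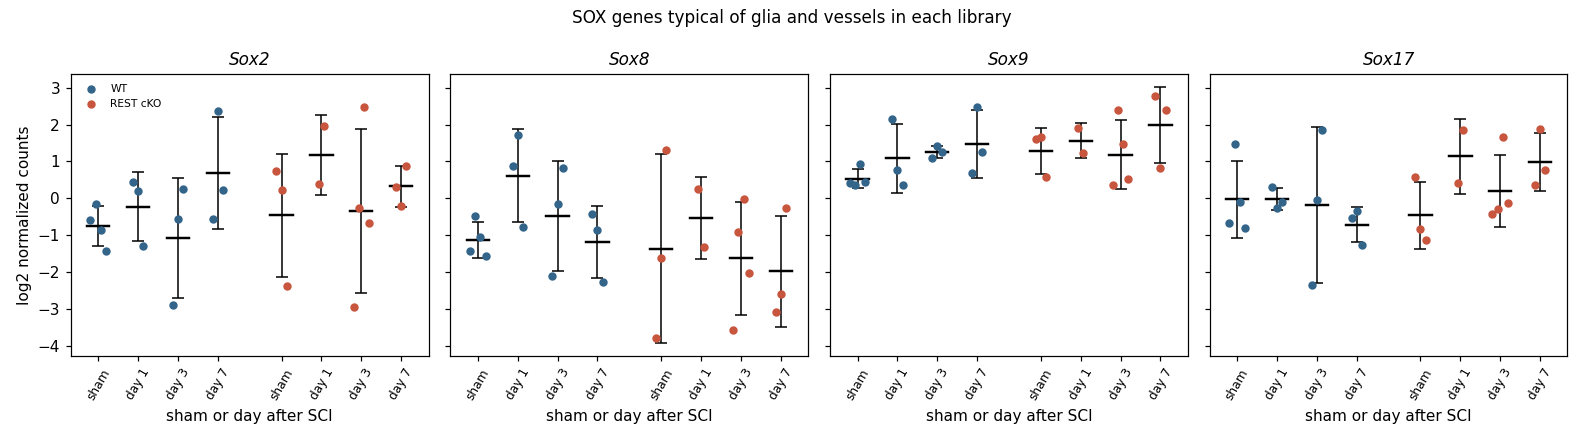
Log2 normalized counts of *Sox2*, *Sox8*, *Sox9* and *Sox17* (y axis) in each library by genotype and by sham or day after SCI (x axis), with points for libraries, black lines for means and bars for SD. The genotypes overlap at day 7 for *Sox2*, *Sox8* and *Sox9*, and the 3 REST cKO libraries lie above the 3 WT libraries for *Sox17*.

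Counts of SOX genes stood beside the whole table as follows. In WT day 1 against sham, 0 of 7 had an unadjusted p under 0.05 (6.43% of all genes) and 0 of 7 were free of overlap (7.02%), with 0% of all genes past the adjusted threshold. In WT day 3, 1 of 7 (*Sox5*) had an unadjusted p under 0.05 (6.90%) and 2 of 7 (*Sox5* and *Sox9*) were free of overlap (6.54%), with 0.0101% past the threshold. In WT day 7 both counts were 0 of 7 (6.89% and 6.87%), with 0% past it. No WT time point held more than 2 SOX genes by either measure.

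In REST cKO day 1 against sham, 1 of 7 (*Sox11*) had an unadjusted p under 0.05 (5.29%) and 2 of 7 (*Sox4* and *Sox11*) were free of overlap (20.4%), with 0% of all genes past the threshold. At day 3, *Sox11* alone counted by both measures (4.65% and 6.69%), with 0.0201% past it. At day 7, *Sox5* and *Sox11* counted by both (5.67% and 10.7%), with 0% past it. *Sox11* is the member that recurs, in comparisons that share their sham libraries.

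Between genotypes in sham, 0 of 7 counted by either measure (6.91% and 7.86%), with 0.0302% of all genes past the threshold. At day 1, 0 of 7 had an unadjusted p under 0.05 (3.81%) and *Sox11* and *Sox17* were free of overlap (18.6%), with 0% past it. At day 3, 0 of 7 (6.37%) and 1 of 7 (*Sox11*, 7.59%) counted, with 0% past it. At day 7, *Sox5* and *Sox11* had an unadjusted p under 0.05 (9.95%) and *Sox5*, *Sox11* and *Sox17* were free of overlap (12.4%), with 0% past it. Between genotypes the 7 genes had a median difference of −0.53 (all genes 0.04) in sham mice, 0.89 (0.19) on day 1, −0.35 (0.05) on day 3 and 0.50 (0.23) on day 7. At day 7, 4 of 7 were positive, and 60.5% of all genes.

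The interaction gave 0 of 7 at day 3 (5.15%, with 0% past the threshold) and 2 of 7 at day 7 (*Sox5* and *Sox11*, 6.35%, with 0.0201% past it). In an F-test over the 8 groups, *Sox5* had F = 3.52 (adjusted p = 0.469) and *Sox11* F = 3.28 (adjusted p = 0.486). By that test 8.50% of all genes had an unadjusted p under 0.05 and 0.0101% passed the threshold. The other 5 SOX genes had adjusted p-values from 0.823 to 0.923.

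Genes linked to these factors were followed as lists. Of 17 SoxC-linked neuronal genes 11 are in the table, and 0 passed the threshold in any comparison. In WT day 1 against sham 11 of 11 were positive (55.9% of all genes), with a median of 1.08 against 0.12 over all genes. Of these, 4 had an unadjusted p under 0.05 (6.43% of all genes). General neuron markers had 10 of 10 positive there, with a median of 0.90. Within REST cKO, 2, 4 and 4 of 11 list genes were positive against sham at days 1, 3 and 7. The shares of all genes were 63.0%, 51.6% and 53.5%. The list medians were −0.14, −0.65 and −0.39, and 0, 0 and 2 of 10 neuron markers were positive. Between genotypes 10 of 11 list genes were positive in sham, 3 of 11 on day 1, 5 of 11 on day 3 and 10 of 11 on day 7, beside 51.8%, 58.4%, 52.4% and 60.5% of all genes. The list medians were 1.22, −0.42, −0.15 and 0.94, and those of neuron markers 1.21, −0.25, −0.30 and 0.64. The lists share *Tubb3*, *Map2* and *Stmn2*. The part of the overall neuron signal in this list was not tested. The interaction median of the list was −1.36 at day 3 (all genes 0.03) and −0.49 at day 7 (all genes 0.19). Between genotypes, 5 of 11 had an unadjusted p under 0.05 in sham (4 higher and 1 lower, 6.91% of all genes) and 2 of 11 at day 7 (9.95%). *Stmn1* and *Arpc3*, the most abundant of the list, differed by 0.43 (SE 0.38) and 0.22 (SE 0.31) at day 7. *Sox11* had r = 0.04 and *Sox4* r = −0.21 with the summed list.

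Of 10 deep-layer genes linked to Sox5, 7 are in the table and 0 passed. At day 7 between genotypes 5 of 7 were positive (60.5% of all genes), with a median of 0.12 against 0.23 over all genes. *Tbr1* and *Bcl11b*, the most abundant, differed by 1.72 (SE 1.17) and 0.09 (SE 0.85). *Sox5* had r = −0.12 with the summed list. Of 14 interneuron genes linked to Sox6, 8 are in the table and 0 passed, with a genotype median of 0.82 in sham and 0.39 at day 7, against 0.04 and 0.23 over all genes.

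Neuron markers (10 of 10 in the table, *Syt1* the most abundant) had log2 sums from 3.72 to 5.83, with 4.72 ± 0.34 (SD) in WT day 7 and 5.38 ± 0.40 in REST cKO day 7. *Sox5* had r = 0.28 and *Sox11* r = 0.05 with this sum. *Sox5* had higher r with the sums of endothelial (0.49), excitatory (0.44), mural (0.41) and astrocyte (0.31) markers and of the SoxC-linked list (0.41). The highest r of *Sox11* were with the sums of Sox6-linked interneuron genes (0.43) and of endothelial (0.28), mural (0.27), microglial (0.24) and astrocyte (0.20) markers. Microglial markers (12 of 12, *Ctss* the most abundant) had sums from 6.46 to 7.18 and mural markers (7 of 7, *Rgs5* the most abundant) from 3.61 to 5.64. The lowest microglial sum (6.46) lay above the highest neuron sum (5.83). Median sums were 6.87 for microglial, 5.98 for endothelial, 5.63 for astrocyte and 4.98 for neuron markers. They were 4.46 for oligodendrocyte, 4.37 for mural and 2.58 for oligodendrocyte precursor markers. The lists differ in their genes and length, so the sums are not shares of cells. Markers of other cell types thus had signal in the sorted neurons, and their part in the SOX values was not tested.

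The genes most like each member over 25 libraries, by Pearson r, were *Lrrc75b* (0.78), *N4bp1* (0.76) and *Lamp2* (0.73) for *Sox11*, and *Fbxl8* (0.77), *Phkb* (0.75) and *Grb2* (0.74) for *Sox4*. For *Sox5* they were *Polg2* (0.76), *Col3a1* (0.75) and *Wwtr1* (0.75). For *Sox9* they were *Clic4* (0.71), *Mtmr14* (0.68) and the endothelial gene *Pecam1* (0.68). For *Sox2* they were *Rnf111* (0.78), *Gps1* (0.78) and *Crispld2* (0.75), for *Sox8* *Ralgapa2* (0.76), *Wt1os* (0.72) and *Krit1* (0.71), and for *Sox17* *Sema4c* (0.89), *Paqr7* (0.87) and *Pdrg1* (0.87). The libraries share groups and batches, so these are descriptions.

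In GRCm38 *Sox11* lies at chr12:27334264-27342574 and *Sox5* at chr6:143828425-144781977, both on the minus strand and both protein coding. The 250 bases before their RefSeq starts are shown because these genes have the day 7 differences described above. The *Sox11* window is chr12:27342719-27342968, and the *Sox5* window is chr6:143947107-143947356 (GRCm38.p6, minus strand), which lies inside the annotated *Sox5* gene. Capitals mark the SOX motif ACAATGG.
Sox11: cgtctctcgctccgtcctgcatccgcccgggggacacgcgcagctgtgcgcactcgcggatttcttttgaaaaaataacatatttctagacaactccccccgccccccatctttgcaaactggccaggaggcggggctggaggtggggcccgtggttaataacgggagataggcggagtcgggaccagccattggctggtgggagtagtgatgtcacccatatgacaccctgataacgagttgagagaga
Sox5: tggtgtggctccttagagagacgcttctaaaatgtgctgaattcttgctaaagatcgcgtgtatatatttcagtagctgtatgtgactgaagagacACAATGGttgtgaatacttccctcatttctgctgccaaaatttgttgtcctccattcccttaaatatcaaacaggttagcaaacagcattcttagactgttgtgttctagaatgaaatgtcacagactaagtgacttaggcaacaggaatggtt
The SOX core ACAAT, contained in ACAATGG, and 2 half-site cores of the REST element, AGCACC and GGACAG, were searched on both strands. ACAATGG lies at −154 of the *Sox5* start, and 3.02% of 32851 promoter windows of that length hold it. ACAAT is in 27.7% of windows, AGCACC in 13.4% and GGACAG in 18.7%. None of the 4 letter strings is in the *Sox11* window, and neither half-site core is in the *Sox5* window. A match or its absence in this window is a description of the letters.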

How the data were processed

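The authors deposited log2 normalized counts, made from 3′ reads aligned to mm10 with STAR and quantified with Salmon, scaled by the DESeq2 method, corrected for batch effects with RUV and for 2 sequencing components by regression. Their limma voom log2 fold changes, p-values and FDR in the same table were not used. Versions are not given in the sources used here. Of 9955 rows, 24 (0.241%) had no symbol. No 2 of the 25 libraries held identical values.

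The test was limma 3.58.1 (R 4.3.3), whose model held 8 group means and the 2 components. Variances followed a trend on the mean, and p-values were adjusted by Benjamini-Hochberg across the 9931 genes (threshold 0.1). Positions are from GENCODE for GRCm38 and promoters from RefSeq, in which 5 of the 7 genes matched. Named genes were *Rest*, all members, the 3 most like genes of each, and from each list those past the threshold or otherwise the 2 most abundant. Results for some single genes of the lists are not reported. The members and lists were chosen with earlier results of these data known. Alternatives were no components, a batch or sex term, quantile normalization, library weights, and only the groups compared, which also left out the components. Others were leaving out each library, no trend, genes with a mean of at least 0, and a threshold of 0.05.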

Additional observations from a re-analysis of the deposited data

Results flagged for a closer look

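In groups of 4 libraries, 14 sets of values of the SOX genes were examined for a library far from the others, and 3 were found. Chance gives about 1 in 20. *Sox4* was −0.48 in REST cKO day 3 library 9, against 0.51 in the nearest library. *Sox9* was 0.93 in WT sham library 14, against 0.43 in the nearest. *Sox17* was 1.66 in REST cKO day 3 library 20, against −0.14 in the nearest. The cause was not tested.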

How the results depend on the processing

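For 0 of 7 SOX genes did limma give an adjusted p under the threshold in any comparison, and this count was 0 in all 199 alternatives to it. Not all of these were tests of every gene. The stricter threshold cannot raise a count of 0. The filter for genes with a mean of at least 0 left out *Sox11* (mean −0.40), *Sox5* (−0.83), *Sox2* (−0.18) and *Sox8* (−1.01). Those 4 genes were therefore not tested under the filter. The lowest adjusted p of a member in any of the 1261 single-gene alternatives was 0.136, for *Sox5* between genotypes at day 7 without components. Over all alternatives of that difference the adjusted p ran from 0.136 to 0.545. Of 84 fitted differences 52 had the same sign throughout, including those of *Sox5* (3.41 to 4.70), *Sox11* (1.69 to 3.54) and *Sox17* (0.89 to 2.11) between genotypes at day 7. The other 32 changed sign in 84 alternatives, and the cause was not tested. In the following, a day alone is compared with sham of that genotype, and genotype means REST cKO against WT.

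With quantile normalization, differences of changed sign were −0.0267 for *Sox17* (WT day 1), −0.0419 for *Sox4* (WT day 3), 0.30 for *Sox8* (WT day 7), −0.0441 for *Sox9* (REST cKO day 1). With a batch term, differences of changed sign were −0.17 for *Sox8* (WT day 3), −0.0285 for *Sox2* (REST cKO day 3), 0.0598 for *Sox8* (interaction day 3). With library weights, differences of changed sign were −0.13 for *Sox4* (WT day 3), 0.14 for *Sox2* (WT day 3), 0.12 for *Sox17* (WT day 3), 0.34 for *Sox8* (REST cKO day 3), 0.66 for *Sox8* (REST cKO day 7), 0.0654 for *Sox4* (genotype day 7), 0.0914 for *Sox2* (genotype day 7), 0.0979 for *Sox8* (genotype day 7), −0.0628 for *Sox2* (interaction day 3), 1.00 for *Sox8* (interaction day 7). With a sex term, differences of changed sign were 0.11 for *Sox8* (WT day 7), 0.55 for *Sox8* (REST cKO day 3), −0.0693 for *Sox5* (genotype sham), −0.49 for *Sox2* (genotype sham), 0.42 for *Sox4* (genotype day 7), 0.32 for *Sox8* (interaction day 3).

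For the differences that changed sign in any alternative, the lowest and highest values with 1 library left out follow by gene. *Sox4* ran from −1.31 to 0.15 (genotype day 3), −0.44 to 0.36 (genotype day 7), −0.00594 to 1.18 (interaction day 3), −0.46 to 0.96 (WT day 3). *Sox11* ran from −1.83 to 0.28 (genotype sham), −0.00731 to 2.27 (interaction day 3). *Sox5* ran from −1.95 to 0.27 (REST cKO day 1), −0.86 to 0.93 (genotype sham), −1.59 to 0.62 (interaction day 3). *Sox2* ran from −1.17 to 1.26 (REST cKO day 3), −0.12 to 1.86 (REST cKO day 7), −0.53 to 1.59 (genotype day 3), −1.01 to 0.66 (genotype day 7), −0.93 to 1.19 (genotype sham), −1.17 to 1.95 (interaction day 3), −1.58 to 0.61 (interaction day 7), −0.84 to 0.52 (WT day 3). *Sox8* ran from −0.96 to 2.31 (REST cKO day 1), −2.73 to 1.18 (REST cKO day 3), −2.70 to 1.00 (REST cKO day 7), −1.48 to 0.10 (genotype day 7), −1.67 to 2.38 (genotype sham), −4.11 to 0.59 (interaction day 3), −2.94 to 1.13 (interaction day 7), −0.20 to 1.08 (WT day 3), −0.66 to 0.38 (WT day 7). *Sox9* ran from −0.0844 to 0.60 (REST cKO day 1), −1.26 to 0.29 (interaction day 7). *Sox17* ran from −0.47 to 1.43 (genotype day 3), −1.91 to 0.10 (genotype sham), −0.0934 to 0.74 (WT day 1), −1.20 to 0.64 (WT day 3).

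Other differences kept their sign but moved by over 1.5 times with 1 library left out. The range of *Sox4* was 0.56 to 1.15 (REST cKO day 3), 0.17 to 0.98 (REST cKO day 7), 0.50 to 1.49 (genotype day 1), 0.79 to 1.72 (interaction day 7), −1.003 to −0.12 (WT day 1), −1.18 to −0.38 (WT day 7). The range of *Sox11* was 1.97 to 3.90 (REST cKO day 1), 1.38 to 3.46 (REST cKO day 3), 1.66 to 3.67 (REST cKO day 7), 0.31 to 1.01 (genotype day 3), 1.69 to 3.54 (genotype day 7), 2.61 to 5.05 (interaction day 7), −1.07 to −0.36 (WT day 1), 0.68 to 1.27 (WT day 3), −1.96 to −0.25 (WT day 7). The range of *Sox5* was 0.93 to 2.61 (REST cKO day 3), −2.38 to −0.16 (genotype day 1), −1.07 to −0.0773 (genotype day 3), 0.41 to 1.80 (WT day 1), −1.97 to −0.84 (WT day 7). The range of *Sox2* was 0.59 to 2.67 (REST cKO day 1), 0.54 to 2.62 (genotype day 1), 0.26 to 1.05 (WT day 1), 0.44 to 2.25 (WT day 7). The range of *Sox8* was −2.64 to −0.90 (genotype day 1), −1.64 to −0.17 (genotype day 3). The range of *Sox9* was −0.82 to −0.11 (REST cKO day 3), 0.18 to 1.26 (REST cKO day 7), 0.47 to 1.39 (genotype day 1), −0.76 to −0.0372 (genotype day 3), 0.00299 to 1.16 (genotype day 7), 0.034 to 0.89 (WT day 1), 0.58 to 1.67 (WT day 7). The range of *Sox17* was 0.75 to 2.56 (REST cKO day 1), 0.21 to 2.03 (REST cKO day 3), 1.04 to 2.75 (REST cKO day 7), 0.11 to 1.92 (genotype day 1), 0.26 to 2.78 (interaction day 3), 1.69 to 3.74 (interaction day 7), −1.06 to −0.20 (WT day 7). Some other alternatives went beyond the range with 1 library left out. *Sox5* reached 0.22 (WT day 1), *Sox4* 0.45 (REST cKO day 3) and *Sox8* −3.23 (genotype day 1). *Sox2* reached −1.85 (genotype day 7), and *Sox9* 0.75 (genotype sham) and −0.82 (interaction day 3).

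Leaving out a REST cKO day 1 library leaves 1, which is assumed to vary like the other groups. Libraries could not be paired by number, because the numbers are not shared between groups, and a batch term was among the alternatives. The read total of each library is not in the files used here.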
